A study of Homo sapiens with 10 samples.

Results

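The MHC class I antigen presentation genes were 9 of the 23426 genes in the expression tables: HLA-B, HLA-C, HLA-E, B2M, TAP1, TAP2, PSMB8, PSMB9 and NLRC5. They were taken by gene symbol, each had 1 row, and 9 of 9 were among the 16071 genes tested, for which some group's mean exceeded 0.1 FPKM. FPKM are fragments scaled by transcript length and by all mapped fragments, so levels of different genes can be set side by side per length. RNA was sequenced from MDA-MB-468, an established basal breast cancer cell line, and ZR75-1, an established luminal line, and the labels name no engineered change in either. Cells of each line received DMSO, the solvent, or PKC412 (midostaurin, an inhibitor of many protein kinases) at 1 µM for 6 h. That dose is the one in the labels, whereas legends of the study name a lower dose for this experiment, and which was used is not settled here. There were 2 DMSO samples and 3 PKC412 samples per line, 10 in all, and each group stands on 1 cell line for its subtype. The comparisons asked how the levels of these genes differed between the lines and between the agents.

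MHC class I molecules show peptides from inside the cell to cytotoxic T cells. The proteasome cuts proteins into peptides, and PSMB8 and PSMB9 are catalytic subunits that replace the constitutive ones in the immunoproteasome. TAP1 and TAP2 form the transporter that carries peptides into the endoplasmic reticulum, where they are loaded on a heavy chain (HLA-B, HLA-C, or the nonclassical HLA-E) bound to the light chain β2-microglobulin (B2M). NLRC5 is a transactivator of class I genes, and interferons and NF-κB are known inducers of the pathway.

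In DMSO, 6 of 9 genes had a higher level in MDA-MB-468 than in ZR75-1 at an adjusted p under 0.05 (limma on log2(FPKM + 1), Benjamini-Hochberg over all genes tested). They were HLA-C, HLA-E, TAP2, PSMB8, PSMB9 and NLRC5, and none of the 9 (0) was lower. Of all genes tested, 26.5% were called higher and 15.9% lower in this comparison. In these bulk samples, fewer cells of a kind and less RNA per cell cannot be told apart. With PKC412, 0 of 9 genes passed that threshold in either line, beside 1.26% of all genes tested in MDA-MB-468 and 0.946% in ZR75-1. At an unadjusted p under 0.05 in limma, 1 of 9 (TAP1) was higher with PKC412 in MDA-MB-468, where 16.4% of all genes passed. In ZR75-1, 2 of 9 (TAP1 and TAP2) were higher, where 11.2% of all genes passed.

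As a check of the labels, basal keratins marked MDA-MB-468, with a mean of 969 FPKM for KRT5 against 0.15 in ZR75-1 in DMSO. The estrogen-responsive TFF1 marked ZR75-1, at 4809 FPKM against 3.35. Of the 14 leukocyte markers, CD3D, MS4A1 and NKG7 were listed at 0 in every sample and PTPRC was at most 0.0651 FPKM, while CD14 reached 23.3 FPKM in MDA-MB-468. Summed over the list, leukocyte markers were 26.9 to 34.3 FPKM in MDA-MB-468 samples and 7.55 to 12.7 in ZR75-1 samples, and their part in the results was not tested. The samples also differed in how FPKM ran with GC content of the transcript, and those values are given beside B2M, TAP1 and TAP2.

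The 9 genes lie at 3 places in the genome (GENCODE release 29, GRCh38, whereas the authors aligned to hg19). Most are in the MHC on chromosome 6: HLA-E at chr6:30489467-30494205 on the plus strand, HLA-C at chr6:31268749-31272086 and HLA-B at chr6:31353872-31357187 on the minus strand. Further along the same chromosome, TAP2 (chr6:32825415-32838780), PSMB8 (chr6:32840717-32844703) and TAP1 (chr6:32845209-32853978) are on the minus strand and PSMB9 (chr6:32844136-32859585) is on the plus strand. B2M is at chr15:44711487-44718877 and NLRC5 at chr16:56989498-57083524, both on the plus strand. These are the spans of the longest protein-coding transcripts. The longest PSMB9 transcript starts inside PSMB8 on the other strand and shares 139 of its 792 exonic bases with it, and TAP1 and PSMB8 share exonic bases with the antisense transcript PSMB8-AS1, which has no row in the tables. TAP2 shares 36.3% of its exonic bases with a second annotated gene on its own strand, and HLA-B 24.0% with a pseudogene on the other strand. Whether the libraries kept strand is not stated in the sources used here, so reads of these pairs cannot be told apart.

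The heavy chains also resemble each other. Of all words of 50 bases in a transcript, the share found in the transcripts of other genes in the tables was 2.54% for HLA-B, 6.71% for HLA-C and 5.13% for HLA-E, and 0 for B2M and NLRC5. How reads from the HLA alleles of each line aligned to the reference was not tested, and a level of an HLA gene therefore holds for reads that matched the reference alleles.

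Sequences just upstream of 3 genes are shown because they hold letters of the promoter elements this pathway is known for. The levels of HLA-C and PSMB9 differed between the lines, and that of B2M did not pass the test. RefSeq gave a window of 250 bases before the start for 7 of the 9 genes, and HLA-E and NLRC5 had no entry. Both strands were searched for CCAAT (bound by NF-Y), TGACG (bound by CREB and ATF factors), GAANNGAAA (a form of the interferon-stimulated element) and the κB element (bound by NF-κB). The stretch of each window that no GENCODE exon covered is printed 5′ to 3′ on the strand of the gene, with matches to a motif on either strand in capitals.

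HLA-C (chr6:31272131-31272342, GRCh38.p14, minus strand): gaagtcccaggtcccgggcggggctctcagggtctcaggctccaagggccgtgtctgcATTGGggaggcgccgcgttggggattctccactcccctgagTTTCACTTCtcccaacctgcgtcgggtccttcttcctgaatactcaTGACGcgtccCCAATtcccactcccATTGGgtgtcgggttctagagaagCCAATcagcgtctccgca

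B2M (chr15:44711317-44711486, GRCh38.p14, plus strand): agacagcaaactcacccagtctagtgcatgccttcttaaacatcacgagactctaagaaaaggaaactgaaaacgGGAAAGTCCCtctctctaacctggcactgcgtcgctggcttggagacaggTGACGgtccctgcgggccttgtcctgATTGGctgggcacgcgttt

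PSMB9 (chr6:32853979-32854147, GRCh38.p14, plus strand): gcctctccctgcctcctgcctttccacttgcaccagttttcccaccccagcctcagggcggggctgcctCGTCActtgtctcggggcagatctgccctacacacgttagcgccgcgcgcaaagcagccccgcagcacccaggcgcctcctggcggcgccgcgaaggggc

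In the full windows, HLA-C had 4 matches to CCAAT, 1 to TGACG and 1 to GAANNGAAA, and HLA-B had 3, 1 and 1 of the same and 1 match to the κB element. B2M had 1 match to CCAAT, 1 to TGACG and 1 to the κB element. PSMB9 had 1 match to CCAAT and 1 to TGACG, and TAP1, in the window that starts nearest to PSMB9, had 1 to CCAAT and 1 to the κB element. TAP2 had 1 match to TGACG and 1 to GAANNGAAA, and PSMB8 had 1 to TGACG in 1 of its 2 windows. Within a window no match overlapped another, but the CCAAT matches of TAP1 and PSMB9 are the same bases, in the 13 bases that their windows share. Of 35116 windows of the same length in RefSeq, 32% held CCAAT, 21.2% TGACG, 6.56% GAANNGAAA and 5.07% the κB element. A match describes letters and says nothing of binding in these cells. Forms of the interferon-stimulated element with 1 more base were not searched. Such letters stand in the windows of B2M (gaaactgaaa) and TAP1 (tttcgatttc, read on the other strand). A window with no match to GAANNGAAA is therefore not shown to lack the element. In RefSeq, TAP1 and PSMB9 start 488 bases apart on opposite strands.

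HLA-C had the highest level of the 3 heavy chains among the 9 genes in both lines. In MDA-MB-468 its FPKM was 581 and 553 in DMSO and 469, 544 and 484 in PKC412. The ZR75-1 samples had 304 and 309 in DMSO and 332, 446 and 285 in PKC412. Every MDA-MB-468 sample lay above every ZR75-1 sample with the same agent. The difference between the lines was 0.88 in DMSO (log2 scale, standard error 0.20, limma adjusted p = 0.00724) and 0.52 in PKC412 (standard error 0.16, limma adjusted p = 0.0245). The latter did not hold in every setting: with samples rescaled by median ratios it was 0.32 (limma adjusted p = 0.28), and with those 2 groups alone in the fit the adjusted p was 0.0545. It also missed the threshold without PKC412 replicate 2 or 3 of MDA-MB-468 and without PKC412 replicate 1 or 3 of ZR75-1, at 0.37 to 0.54. Rescaling also took the difference in DMSO to 0.70 (limma adjusted p = 0.0903).

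HLA-E, the ligand of the NKG2A receptor on natural killer cells, differed between the lines as well. Its FPKM in MDA-MB-468 was 52.6 and 51.3 in DMSO and 54.4, 54.8 and 55.5 in PKC412. The ZR75-1 values were 17.0 and 16.7 in DMSO and 18.9, 26.4 and 17.6 in PKC412, and no sample of the lines overlapped. The ratio of mean FPKM between the lines was 3.09 in DMSO and 2.61 in PKC412. On the log2 scale this was 1.57 (standard error 0.17, limma adjusted p = 0.00016) and 1.37 (standard error 0.14, limma adjusted p = 7.27e-05). Except for the 3-fold rule, under which only the ratio in DMSO passed, these calls held in every setting tried.

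HLA-B did not pass the test between the lines. Its FPKM was 109 and 104 in DMSO and 93.4, 116 and 106 in PKC412 in MDA-MB-468, against 81.6 and 78.5 in DMSO and 87.8, 116 and 68.6 in PKC412 in ZR75-1. The groups did not overlap in DMSO and overlapped in PKC412, where ZR75-1 replicate 2 was as high as the highest MDA-MB-468 sample. The difference was 0.41 in DMSO (95% interval -0.10 to 0.91, limma adjusted p = 0.176) and 0.24 in PKC412 (-0.18 to 0.65, limma adjusted p = 0.283). It did pass after adjustment for GC content and transcript length, at 0.30 in DMSO and 0.31 in PKC412, and without PKC412 replicate 2 of ZR75-1, at 0.43 in PKC412. Within a sample, the ratio of HLA-C to HLA-B was 4.57 to 5.32 in MDA-MB-468, against 3.73 to 4.16 in ZR75-1.

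B2M, the light chain, did not pass the test between the lines. In MDA-MB-468 its FPKM was 428 and 614 in DMSO and 769, 767 and 704 in PKC412. ZR75-1 had 465 and 1190.4 in DMSO and 918, 891 and 1013 in PKC412. The 2 DMSO samples of ZR75-1 thus spanned all other samples but 1 of MDA-MB-468, and the groups overlapped between the lines in DMSO. In PKC412 every MDA-MB-468 sample lay below every ZR75-1 sample. The difference between the lines was -0.54 in DMSO (95% interval -1.41 to 0.34, limma adjusted p = 0.305) and -0.33 in PKC412 (-1.05 to 0.38, limma adjusted p = 0.384). The value in DMSO turned on 1 library: without DMSO replicate 1 of ZR75-1 it was -1.21 and past the threshold (limma adjusted p = 0.00587), and without DMSO replicate 2 of ZR75-1 it was 0.14.

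B2M also has the lowest GC content of the 9 transcripts, 39.4%, against 49.1% for TAP2 and 53.9% to 60.0% for the others. The GC slope of a library is the change in log2 FPKM, relative to the mean of its line, per 10 percentage points of GC. It was 0.373 and 0.0573 in the DMSO samples of MDA-MB-468 and -0.287, -0.0240 and -0.119 in its PKC412 samples. The slopes of ZR75-1 were 0.314 and -0.192 in DMSO and -0.107, 0.342 and -0.356 in PKC412. The lowest B2M level of each line was in the DMSO library with a slope above 0.3, and PKC412 replicate 2 of ZR75-1, which had such a slope too, had the lowest B2M level of its group. In MDA-MB-468, B2M was 0.54 higher with PKC412 on the log2 scale (95% interval -0.26 to 1.34), and 0.06 higher after adjustment for GC content and transcript length. In that line every DMSO slope was above 0 and every PKC412 slope below it, so slope and agent cannot be told apart. The adjustment was fitted over both agents of a line, so it also takes out any PKC412 effect that runs with GC content or length. TAP1 and TAP2 were lowest in each line in the DMSO library with a slope above 0.3, while TAP1 was highest in ZR75-1 in PKC412 replicate 2. A positive slope goes with higher FPKM at higher GC content, and the TAP1 transcript, unlike that of B2M, has a high GC content of 57.5%. The part of the slope in these levels was not tested.

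**Figure D1:**
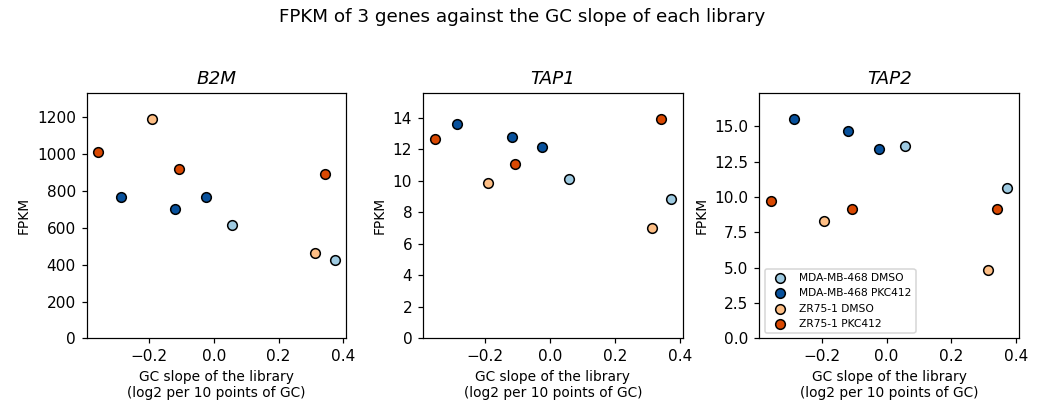
FPKM of B2M, TAP1 and TAP2 (vertical axes, from 0) against the GC slope of each of the 10 libraries (horizontal axes, log2 FPKM per 10 percentage points of GC, relative to the mean of the cell line). Points are samples, coloured by group; the libraries with slopes of 0.373 and 0.314 have the lowest B2M levels, 428 and 465 FPKM.

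HLA-F, a nonclassical heavy chain outside the 9 genes, was higher in MDA-MB-468, with means of 43.8 and 9.16 FPKM in DMSO, a difference of 2.14 (limma adjusted p = 5.78e-05). Of the 8 tested class I and class I-like genes outside the 9, 5 were called higher in MDA-MB-468 in DMSO and 1, FCGRT, lower. Of all genes tested, 26.5% were called higher and 15.9% lower. FCGRT, the neonatal Fc receptor for IgG and albumin, had means of 0.138 and 4.43 FPKM (limma adjusted p = 3.17e-05).

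**Figure D2:**
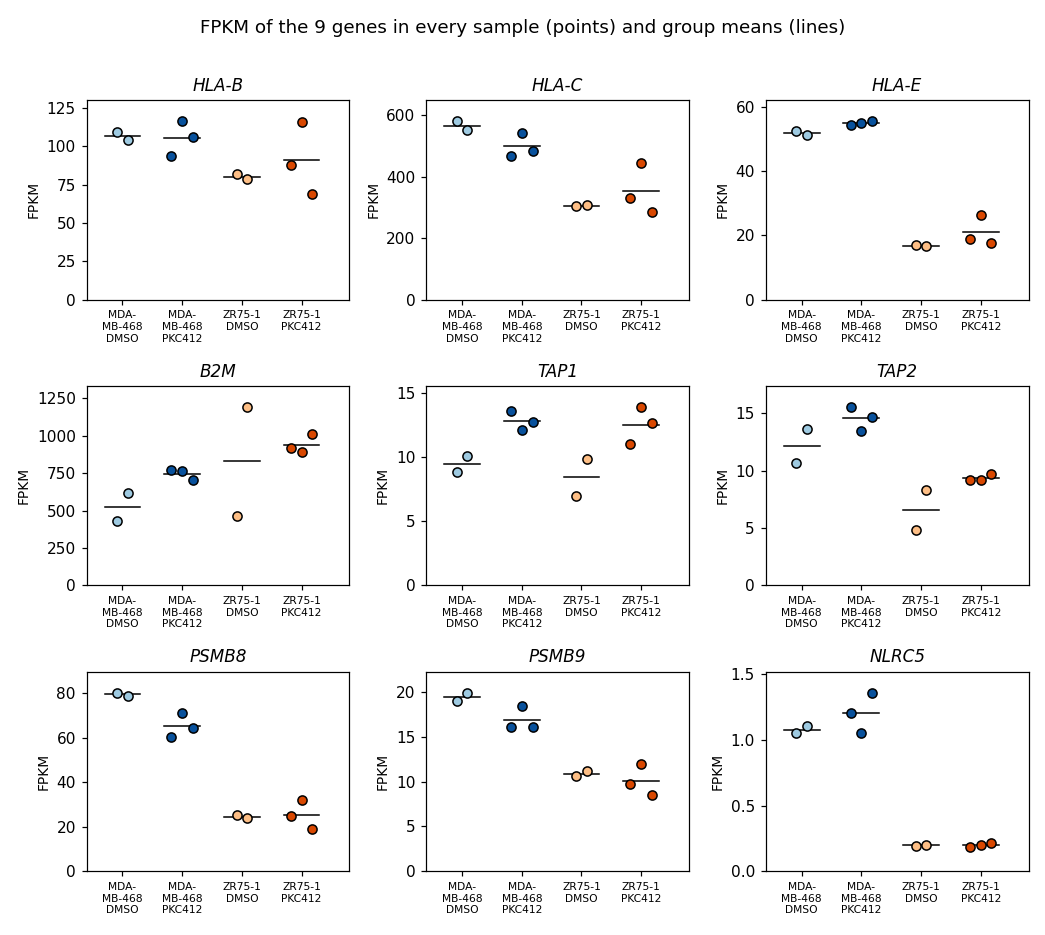
FPKM of each of the 9 genes (vertical axes, from 0) in the 10 samples, by group. Points are samples and lines are group means of 2 (DMSO) or 3 (PKC412) samples; for HLA-C, HLA-E, TAP2, PSMB8, PSMB9 and NLRC5 every MDA-MB-468 sample is above every ZR75-1 sample, and the TAP1 levels overlap.

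The transporter subunits TAP1 and TAP2 are taken in turn. TAP2 had an FPKM of 10.6 and 13.6 in DMSO and 15.5, 13.4 and 14.7 in PKC412 in MDA-MB-468. In ZR75-1 it had 4.86 and 8.29 in DMSO and 9.18, 9.16 and 9.74 in PKC412, so each MDA-MB-468 sample was above each ZR75-1 sample. The difference was 0.82 in DMSO (standard error 0.22, limma adjusted p = 0.0164) and 0.58 in PKC412 (standard error 0.18, limma adjusted p = 0.0225). In DMSO the call was lost without DMSO replicate 2 of MDA-MB-468 (0.66), without DMSO replicate 1 of ZR75-1 (0.49) and with those 2 groups alone in the fit (limma adjusted p = 0.111). In PKC412 it was lost without PKC412 replicate 1 or 3 of MDA-MB-468 and without PKC412 replicate 1 or 2 of ZR75-1, at 0.54 to 0.58.

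TAP1 had an FPKM of 8.86 and 10.1 in DMSO and 13.6, 12.2 and 12.8 in PKC412 in MDA-MB-468. In ZR75-1 it had 7.01 and 9.83 in DMSO and 11.1, 13.9 and 12.7 in PKC412. The lines overlapped with either agent, and the difference was 0.17 in DMSO (95% interval -0.24 to 0.57) and 0.03 in PKC412 (-0.30 to 0.37). Within a sample, the ratio of TAP2 to TAP1 was 1.11 to 1.35 in MDA-MB-468, against 0.658 to 0.843 in ZR75-1.

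Both immunoproteasome subunits among the 9 genes differed between the lines. PSMB8 had an FPKM of 80.0 and 78.8 in DMSO and 60.4, 71.0 and 64.4 in PKC412 in MDA-MB-468. In ZR75-1 it had 25.2 and 23.7 in DMSO and 24.6, 32.0 and 19.1 in PKC412. No samples of the lines overlapped, and the difference was 1.66 in DMSO (standard error 0.21, limma adjusted p = 0.000324) and 1.36 in PKC412 (standard error 0.17, limma adjusted p = 0.000207). PSMB9 had an FPKM of 19.0 and 19.9 in DMSO and 16.1, 18.4 and 16.2 in PKC412 in MDA-MB-468. In ZR75-1 it had 10.6 and 11.2 in DMSO and 9.72, 12.0 and 8.48 in PKC412. It too did not overlap, with a difference of 0.78 in DMSO (standard error 0.16, limma adjusted p = 0.00484) and 0.70 in PKC412 (standard error 0.13, limma adjusted p = 0.00214). Rescaling by median ratios took the DMSO value of PSMB9 to 0.61 (limma adjusted p = 0.0632).

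Of the 3 constitutive counterparts, 0 were called higher in MDA-MB-468 in DMSO and 1 lower, beside 26.5% and 15.9% of all genes tested. PSMB5, which PSMB8 replaces, was lower in MDA-MB-468, with means of 257 and 358 FPKM in DMSO (difference -0.48, limma adjusted p = 0.0322) and a difference of -0.63 in PKC412 (limma adjusted p = 0.00265). The PSMB5 call in DMSO was lost in 8 of 20 alternatives, among them leaving out any 1 DMSO sample (-0.50 to -0.46, limma adjusted p = 0.0792 to 0.12) and rescaling by median ratios (limma adjusted p = 0.0559). PSMB6, which PSMB9 replaces, had means of 332 and 294 FPKM in DMSO (difference 0.19, 95% interval -0.33 to 0.71). PSMB7 had means of 271 and 366 FPKM (difference -0.43, limma adjusted p = 0.0679). PSMB10, the third immunoproteasome subunit, had 154 and 111 FPKM in MDA-MB-468 and 387 and 207 in ZR75-1 in DMSO. That difference was -1.11 (95% interval -2.04 to -0.19, limma adjusted p = 0.0558), and in PKC412 it was -1.21 (limma adjusted p = 0.0134). For PSMB10 the DMSO value was -0.66 without DMSO replicate 1 of ZR75-1 and -1.56 without its replicate 2 (limma adjusted p = 0.0277), and it passed in 4 of 20 alternatives, among them adjustment for GC content and length (limma adjusted p = 0.00186).

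As a share of each pair within a sample, PSMB8 was 22.9% to 24.0% of PSMB8 plus PSMB5 in MDA-MB-468 and 6.29% to 8.24% in ZR75-1. PSMB9 was 5.17% to 7.23% of PSMB9 plus PSMB6 in MDA-MB-468, against 3.00% to 4.80% in ZR75-1. PSMB10 was 24.9% to 35.7% of PSMB10 plus PSMB7 in MDA-MB-468 and 31.1% to 49.2% in ZR75-1, ranges that overlap. These are shares of transcript levels, and subunits in assembled proteasomes were not measured.

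**Figure D3:**
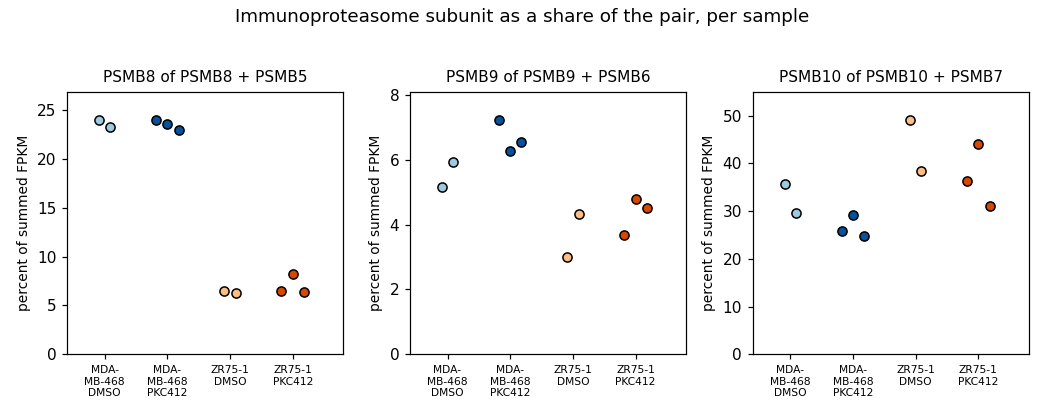
Immunoproteasome subunits as a percent of the summed FPKM of the subunit and its constitutive counterpart (vertical axes, from 0) in each of the 10 samples, by group. The PSMB8 share is 22.9% to 24.0% in MDA-MB-468 and at most 8.24% in ZR75-1, and the PSMB10 share overlaps between the lines.

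NLRC5, the transactivator, had the lowest level of the 9 genes in both lines. Its FPKM was 1.05 and 1.10 in DMSO and 1.20, 1.05 and 1.36 in PKC412 in MDA-MB-468. ZR75-1 had 0.193 and 0.202 in DMSO and 0.186, 0.202 and 0.215 in PKC412. No samples of the lines overlapped, with a ratio of mean FPKM of 5.45 in DMSO and 5.98 in PKC412. On the log2(FPKM + 1) scale, which compresses low levels, the difference was 0.79 in DMSO (standard error 0.09, limma adjusted p = 0.000141) and 0.87 in PKC412 (standard error 0.07, limma adjusted p = 1.67e-05). With a pseudocount of 0.1 the NLRC5 differences were 1.98 and 2.11. In DMSO, 36.6% of the genes tested had a lower mean FPKM in MDA-MB-468 and 19.7% in ZR75-1.

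**Figure D4:**
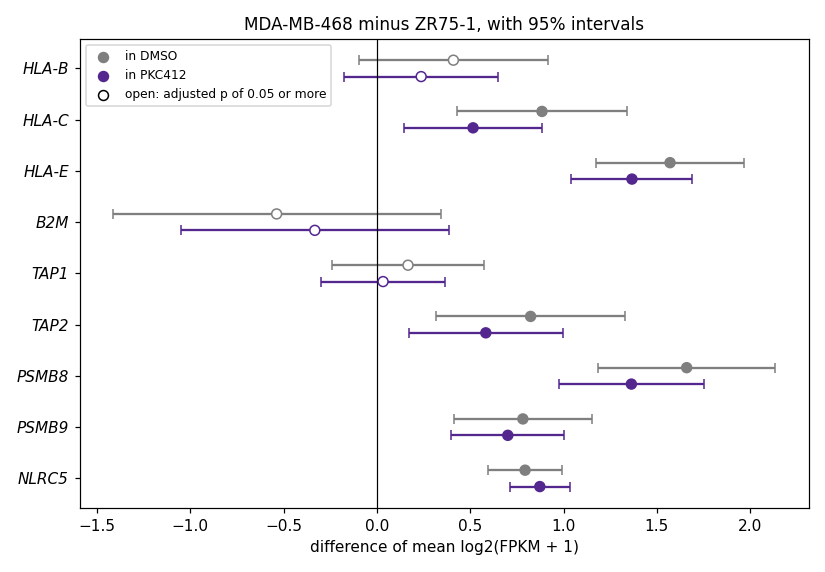
Difference between MDA-MB-468 and ZR75-1 in mean log2(FPKM + 1) (horizontal axis) for the 9 genes, in DMSO (grey) and in PKC412 (purple), with 95% intervals from limma. Filled points have an adjusted p under 0.05; 6 of 9 are filled and to the right of 0 with each agent, and HLA-B, B2M and TAP1 are open.

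Side by side, 6 of 9 genes were called higher in MDA-MB-468 with PKC412 too and 0 lower, where 37% of all genes tested were called higher and 21.6% lower. The samples of MDA-MB-468 lay above those of ZR75-1 without overlap for 7 of 9 genes in DMSO and below them for 0, against 42.3% and 27.3% of all genes. In PKC412 they lay above for 6 of 9 and below for 1, B2M, against 40.3% and 24.2%. The median difference over the 9 genes was 0.79 in DMSO and 0.58 in PKC412, beside medians of 0.11 and 0.19 over all genes tested. By the rule of a 3-fold ratio of means, HLA-E, PSMB8 and NLRC5 passed in DMSO (20.1% of genes with a ratio were at least 3-fold higher) and NLRC5 alone passed in PKC412 (22.5%).

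The order of the levels was alike in the lines, except at the top and among the transporter subunits. In DMSO in MDA-MB-468, HLA-C (567 ± 19.6 FPKM, SD, n = 2) and B2M (521 ± 132) overlapped, followed by HLA-B (107 ± 3.94), PSMB8 (79.4 ± 0.893), HLA-E (51.9 ± 0.890), PSMB9 (19.4 ± 0.653), TAP2 (12.1 ± 2.13), TAP1 (9.48 ± 0.867) and NLRC5 (1.08 ± 0.0384). In ZR75-1, B2M (828 ± 513, SD, n = 2) stood before HLA-C (307 ± 3.65), followed by HLA-B (80.1 ± 2.17), PSMB8 (24.5 ± 1.08), HLA-E (16.8 ± 0.222), PSMB9 (10.9 ± 0.434), TAP1 (8.42 ± 2.00), TAP2 (6.57 ± 2.42) and NLRC5 (0.198 ± 0.00616). TAP1 and TAP2 overlapped in ZR75-1, and every other pair of neighbours after B2M was separate in both lines.

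PKC412 was compared with DMSO in each line. In MDA-MB-468, 0 of 9 genes passed an adjusted p under 0.05, where 1.26% of all genes tested did, and 1 of 9 (TAP1) had an unadjusted p under 0.05, where 16.4% of all genes did. TAP1 was 0.40 higher on the log2 scale (standard error 0.16, 95% interval 0.03 to 0.77, limma adjusted p = 0.287), and every PKC412 sample lay above both DMSO samples. HLA-E and B2M were also higher without overlap, at 0.08 (-0.28 to 0.44) and 0.54 (-0.26 to 1.34). HLA-C, PSMB8 and PSMB9 were lower without overlap, at -0.19 (-0.60 to 0.23), -0.28 (-0.72 to 0.15) and -0.20 (-0.53 to 0.14). Such separations were common in this line: 39.6% of all genes tested were higher and 16.3% lower without overlap, and 3 of 9 were each here. TAP2, at 0.25 (-0.21 to 0.71), HLA-B, at -0.03 (-0.49 to 0.44), and NLRC5, at 0.08 (-0.10 to 0.26), overlapped.

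In ZR75-1, 0 of 9 genes passed, where 0.946% of all genes tested did, and 2 of 9 had an unadjusted p under 0.05, where 11.2% of all genes did. TAP1 was 0.54 higher (standard error 0.16, 95% interval 0.16 to 0.91, limma adjusted p = 0.272), and TAP2 was 0.49 higher (standard error 0.20, 95% interval 0.03 to 0.95, limma adjusted p = 0.423). Without DMSO replicate 1 of ZR75-1 these were 0.32 for TAP1 and 0.16 for TAP2, and without its DMSO replicate 2 they were 0.75 and 0.82. After adjustment for GC content and transcript length TAP1 was 0.39 and TAP2 0.21 higher in ZR75-1, and in MDA-MB-468 TAP1 was 0.38 higher and TAP2 was at -0.14. With no adjustment both were higher in every PKC412 sample than in either DMSO sample, as was HLA-E, at 0.28 (-0.08 to 0.64). This made 3 of 9 higher without overlap and 0 lower, beside 14.8% and 6.98% of all genes. The other 6 genes overlapped, with differences from -0.12 for PSMB9 to 0.34 for B2M. The interval for B2M, -0.47 to 1.14, was the widest, and for NLRC5 it was -0.18 to 0.18.

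**Figure D5:**
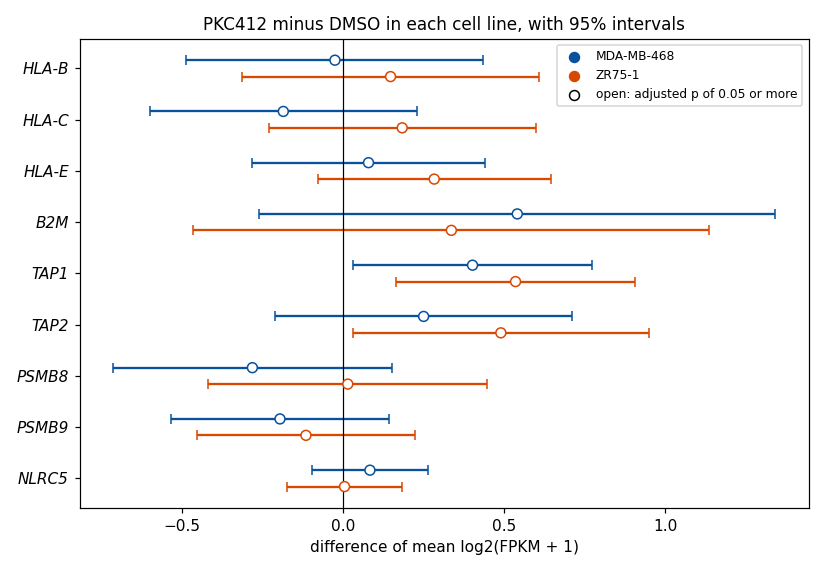
Difference between PKC412 and DMSO in mean log2(FPKM + 1) (horizontal axis) for the 9 genes, in MDA-MB-468 (blue) and ZR75-1 (orange), with 95% intervals from limma. All points are open, since 0 of 9 had an adjusted p under 0.05 in either line, and the intervals of TAP1 in both lines and of TAP2 in ZR75-1 lie above 0.

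Whether the lines responded differently was tested as the difference of the 2 effects. Of the 9 genes, 0 passed an adjusted p under 0.05, where 0.268% of all genes tested did, and 0 had an unadjusted p under 0.05, where 7.05% of all genes did. The largest difference was -0.37 for HLA-C (MDA-MB-468 minus ZR75-1, 95% interval -0.96 to 0.22, limma adjusted p = 0.945). For TAP1 it was -0.13 (-0.66 to 0.39) and for B2M 0.20 (-0.93 to 1.34). Over the 9 genes the median effect of PKC412 was 0.08 for MDA-MB-468 and 0.18 for ZR75-1, beside 0.11 and 0.07 over all genes tested.

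The genes around the pathway give the setting. Among NF-κB subunits, NFKB2, the precursor of p52, rose with PKC412 in both lines, from a mean of 9.10 to 23.1 FPKM in MDA-MB-468 (1.25, limma adjusted p = 0.00226) and from 50.2 to 119 in ZR75-1 (1.23, limma adjusted p = 0.00216). RELB, its partner, rose in MDA-MB-468 from 9.56 to 37.6 FPKM (1.87, limma adjusted p = 0.00266). In ZR75-1 it went from 25.7 to 42.3 FPKM (0.70, limma adjusted p = 0.138), and the difference of the effects was 1.17 (limma adjusted p = 0.125). The other 3 of 5 subunits did not pass in either line, where 1.26% (MDA-MB-468) and 0.946% (ZR75-1) of all genes tested passed. The call of NFKB2 in ZR75-1 was lost with its 2 groups alone in the fit (limma adjusted p = 0.13). With a replicate block within each line, NFKB2 was lost in ZR75-1 (limma adjusted p = 0.637), and NFKB2 and RELB in MDA-MB-468 (limma adjusted p = 0.683 for each). NFKB2 also missed the 3-fold rule in both lines.

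Of 15 genes of interferon signalling and IRF factors, 0 passed in MDA-MB-468, beside 1.26% of all genes tested. An unadjusted p under 0.05 in limma was found for 5 of 15 there, beside 16.4% of all genes. In ZR75-1, 1 of 15 passed and fell, where 0.946% of all genes passed. This was IRF9, the DNA-binding subunit of the complex that type I interferons activate, from 8.76 and 10.4 FPKM in DMSO to 4.77, 4.86 and 5.54 in PKC412 (-0.80, limma adjusted p = 0.0415). The call was lost in 13 of 20 alternatives. IRF1, a direct activator of class I and TAP1 genes that is named here after its values were seen, was at 9.62 FPKM in DMSO and 18.2 in PKC412 in MDA-MB-468 (0.85, limma adjusted p = 0.0568). The ZR75-1 means were 9.52 and 13.3 FPKM (0.43, limma adjusted p = 0.39). The others of the 5 in MDA-MB-468 were IFNGR1 (1.44), IRF2 (1.23) and IFNGR2 (0.73), which were higher, and SOCS3 (-0.60), which was lower. For ZR75-1, 4 of 15 had an unadjusted p under 0.05 in limma, beside 11.2% of all genes. They were SOCS1 (0.93), TYK2 (0.38) and IRF1, which were higher, and IRF9, which was lower. A part of any of these in the class I or TAP1 levels was not tested.

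Between the lines in DMSO, TYK2, a kinase of interferon receptors, was higher in MDA-MB-468 (40.6 against 5.71 FPKM, difference 2.63, limma adjusted p = 1.75e-06), as was IFNAR2, a subunit of the type I interferon receptor (15.3 against 3.40, difference 1.89, limma adjusted p = 8.93e-05). Of the 15 genes 3 were higher and 1, IRF9, was lower (difference -0.47), a call lost in 9 of 20 alternatives. With PKC412 the IRF9 difference had the other sign, at 0.37, a call also lost in 9 of 20 alternatives. Among all genes tested in DMSO, 26.5% were called higher and 15.9% lower. Of the 8 partners of NLRC5 on class I promoters, NFYC, an NF-Y subunit, was higher (50.5 against 9.21 FPKM, difference 2.34, limma adjusted p = 3.23e-06), and RFX5 was lower (3.11 against 10.1 FPKM, difference -1.41, limma adjusted p = 0.00635). Among NF-κB subunits, RELA was higher (41.9 against 20.5 FPKM, difference 0.99) and NFKB2 and RELB were lower (differences -2.34 and -1.33).

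In peptide loading and trimming, 2 of 11 genes were higher in MDA-MB-468 in DMSO and 1 was lower, beside 26.5% and 15.9% of all genes. For PKC412, 0 passed in MDA-MB-468 (1.26% of all genes) and 0 in ZR75-1 (0.946%). At an unadjusted p under 0.05 in limma it was 0 in each, beside 16.4% and 11.2% of all genes. The chaperone calreticulin (CALR) had 953 FPKM against 444 (difference 1.10, limma adjusted p = 0.000322), and the peptidase THOP1 had 34.4 against 16.9 (difference 0.97, limma adjusted p = 0.00121). TAPBPL, a peptide editor related to tapasin, was lower, at 3.06 against 14.2 FPKM (difference -1.91, limma adjusted p = 0.000114). Tapasin itself (TAPBP), which bridges TAP and the heavy chain, had 34.7 ± 5.34 FPKM (SD, n = 2) against 30.8 ± 6.45 (difference 0.18, 95% interval -0.19 to 0.54), and its sign changed with rescaling by median ratios.

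Among the other immunoproteasome subunits and proteasome activators, 0 of 5 was higher in MDA-MB-468 in DMSO and 1 was lower, PSME1 (208 against 396 FPKM, difference -0.92, limma adjusted p = 0.00262). Of 11 other subunits of the proteasome core, 2 were higher (PSMA5 and PSMB2) and 2 lower (PSMB4 and PSMA6, calls lost in 3 and 4 of 20 alternatives). The median difference over these 11 was -0.21, beside 0.11 over all genes tested. Of all genes tested in DMSO, 26.5% were called higher and 15.9% lower, the shares to set beside each list here. Of 6 genes linked to silencing of class I genes, 3 were higher in MDA-MB-468 in DMSO and 0 lower. Those with the widest gap were the DNA methyltransferase DNMT1 (54.8 against 3.70 FPKM, difference 3.60, limma adjusted p = 9.51e-05) and the histone methyltransferase EZH2 (29.1 against 5.24 FPKM, difference 2.29, limma adjusted p = 0.00281).

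The genes whose pattern over the 10 samples was most like the mean of the 9, by Pearson correlation of log2(FPKM + 1) among 11136 genes, were ASNA1 (r = 0.994), OGG1 (0.984), CYSTM1 (0.982), RPS18 (0.982) and EDARADD (0.982). The samples fall into 2 lines, so these values mainly describe a level that differs between the lines. Of the 9 genes themselves, HLA-E (r = 0.953) was closest to the mean pattern and B2M (r = -0.157) farthest, and TAP1 was at 0.510.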

How the data were processed

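RNA from 10 samples was analysed, grouped by the cell line and agent in the labels. The methods describe triplicates, of which 2 with DMSO are analysed here for each line. Per the labels and methods the authors deposited FPKM values per gene symbol, from reads aligned to hg19 (the submitters' processing notes name CASAVA 1.82 and TopHat2) with an in-house pipeline whose annotation is not given in the sources used here. FPKM carry no read counts, so the depth is unknown and precision comes only from the spread between samples. FPKM sums were 599228 to 835069 per sample. The labels do not say that samples came from separate cultures, so p-values may measure technical spread.

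The test was limma (version 3.58.1, R 4.3.3), fitted to log2 of FPKM plus a pseudocount of 1 with the 4 groups as means and a trended eBayes prior. Genes with every group mean at or under 0.1 FPKM were dropped, and p-values of the 16071 others were adjusted by Benjamini-Hochberg and called at 0.05. This scale understates changes of genes with low FPKM. The fit leaves 6 residual degrees of freedom. The 9 genes and the gene lists were chosen with earlier results of these data known. By rule, the text names with values the 9 genes, TAPBP, PSMB10, PSMB5, PSMB6 and PSMB7, list genes called for PKC412, up to 2 rises and 2 falls per list between the lines in DMSO, and the 5 genes most alike in pattern. IRF1, IFNGR1, IRF2, IFNGR2, SOCS1 and SOCS3 are named outside this rule. Alternatives changed the pseudocount, the filter, the scaling, the samples in the fit, the trend, the replicate block, GC content and length, the call rule, and left out each sample. Transcripts came from GENCODE release 29 and promoter windows from RefSeq (GRCh38.p14). Python 3.11.15 with pandas 2.3.3 and matplotlib 3.10.9 did the rest. Some items are not reported here.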

Additional observations from a re-analysis of the deposited data

How the results depend on the processing

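Of the 9 genes, 0 were called for PKC412 in either line or for the difference of the effects in every alternative tried, and 6 were called between the lines with DMSO and with PKC412. For DMSO, leaving out 1 sample gave 5 to 6, rescaling by median ratios 4, the 2 groups alone 5 and adjustment for GC content and length 7. For PKC412 these were 4 to 6, 5, 5 and 7. The counts take either direction and do not always hold the same genes. Without DMSO replicate 1 of ZR75-1, B2M entered the count for DMSO as lower in MDA-MB-468, at -1.21, and TAP2, at 0.49, left it. The rule of a ratio of at least 3 in place of the test gave 3 in DMSO and 1 in PKC412. The cause of these moves was not tested, except that the ratio rule sets a larger size. The labels give DMSO and PKC412 samples the same replicate numbers. Deviations of same-numbered samples from their group means correlated at -0.688 and -0.608 in MDA-MB-468 and 0.123 and -0.627 in ZR75-1. Across the lines they correlated at 0.846 in DMSO, where 2 samples a group make both pairs give the same value, and at -0.249, 0.539 and -0.00688 in PKC412. Since not every pair was above 0.1, the numbers were not taken to pair the samples. A replicate block shared by the lines left 6 of 9 called with each agent. A replicate block within each line left 2 residual degrees of freedom, 0 of 9 called for PKC412 and 0 calls over all genes, where the fit without it made 202 and 152. Over all genes, the calls for PKC412 in MDA-MB-468 were 116 with a pseudocount of 0.1, 81 with the groups alone, 579 with GC content and length adjusted and 65 to 324 with 1 sample left out. In ZR75-1 they were 12 with the groups alone, 452 with the adjustment and 59 to 183 with 1 sample left out. For the difference of the effects, with 43 calls, they were 27 with a pseudocount of 0.1, 68 without a filter or without the trend, 210 with the adjustment, 0 with the replicate block and 16 to 64 with 1 sample left out.

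Differences that were not past the threshold changed sign in some settings. With GC content and length adjusted, the effect of PKC412 in MDA-MB-468 became 0.20 for HLA-B, 0.065 for HLA-C, 0.093 for PSMB9 and -0.14 for TAP2. In ZR75-1 it became -0.035 for NLRC5, 0.031 for PSMB9 and -0.051 for TAPBP, and the difference of the effects became -0.22 for B2M, 0.013 for HLA-B, 0.062 for PSMB9, 0.11 for PSMB10 and 0.051 for PSMB6. Rescaling gave -0.043 for HLA-E in MDA-MB-468 and -0.016 for NLRC5 and -0.10 for PSMB8 in ZR75-1 under PKC412. Between the lines rescaling gave -0.15 for TAP1, -0.10 for PSMB6 and -0.16 for TAPBP in PKC412 and -0.0042 for TAPBP in DMSO. NLRC5 in ZR75-1 was -0.0043 with the replicate block. With 1 sample left out, the effect of PKC412 in MDA-MB-468 ranged from -0.10 to 0.057 for HLA-B and from -0.16 to 0.15 for TAPBP. In ZR75-1 it ranged from -0.34 to 1.01 for B2M, from -0.044 to 0.33 for HLA-B, from -0.0043 to 0.013 for NLRC5, from -0.17 to 0.19 for PSMB8 and from -0.063 to 0.35 for TAPBP. The difference of the effects ranged from -0.47 to 0.88 for B2M, -0.36 to 0.018 for HLA-B, -0.54 to 0.35 for PSMB10, -0.33 to 0.13 for PSMB6, -0.22 to 0.048 for PSMB7, -0.19 to 0.041 for PSMB9, -0.35 to 0.084 for TAP1, -0.57 to 0.092 for TAP2 and -0.36 to 0.059 for TAPBP. The difference between the lines in DMSO ranged from -1.21 to 0.14 for B2M, -0.042 to 0.42 for PSMB6, -0.051 to 0.38 for TAP1 and -0.033 to 0.38 for TAPBP, and in PKC412 from -0.062 to 0.19 for PSMB6, -0.047 to 0.10 for TAP1 and -0.0067 to 0.053 for TAPBP.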

Other observations

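MHC class II genes, which present peptides from outside the cell and are usually a trait of professional antigen-presenting cells, were low or near 0 in MDA-MB-468. All 9 tested genes of this list were lower in MDA-MB-468 than in ZR75-1 in DMSO, where 15.9% of all genes tested were called lower. CD74, the invariant chain, had 0.0866 and 0.185 FPKM in MDA-MB-468, against 58.1 and 54.3 in ZR75-1 (difference -5.66 on the log2 scale, limma adjusted p = 2.79e-07). HLA-DQB1 had 0.0177 and 0 FPKM against 23.5 and 21.8 (difference -4.55, limma adjusted p = 1.98e-06). The class II transactivator CIITA averaged 0.0489 FPKM in MDA-MB-468 against 0.422 in ZR75-1, and it fell with PKC412 in ZR75-1, from 0.470 and 0.375 to 0.162, 0.168 and 0.213 FPKM (-0.27, limma adjusted p = 0.037), a call lost in 15 of 19 alternatives. CD74 was at 52.5, 72.4 and 50.9 FPKM in those PKC412 samples (0.04, 95% interval -0.35 to 0.43). Of the 14 leukocyte markers in the ZR75-1 DMSO samples, 8 were at 0 in every sample and 6 were above 0.1 FPKM, and the list summed to 7.55 to 9.34 FPKM, of which CD68 gave 5.51 and 6.43. The part of these markers in the class II levels was not tested.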
